A study of Mus musculus with 4 samples.

Results

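The genes described here are those of the cytosolic ribosomal proteins (RP), the protein components of the ribosome that works in the cytosol. They were chosen by symbol alone. A gene was a member if its symbol began with Rpl, Rps or Rplp followed by a number, or was Rpsa, with Rpl3, Rpl3l and the S6 kinases left out. This gave 92 members of the 21885 genes listed. They comprised 42 proteins of the large subunit, 31 of the small subunit, the 3 stalk proteins, 7 paralogs and 7 genes named as pseudogenes. The remaining 2, Rps19bp1 and Rps23rg1, share the naming pattern but are not ribosomal proteins.

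The data were Visium spatial transcriptomes, in which a tissue section is laid on an array of barcoded spots and the polyadenylated RNA of each spot is counted as unique molecular identifiers (UMIs). Hearts came from Collagen1a1-GFP+ mice aged 8 to 12 weeks, in which a collagen promoter drives GFP in fibroblasts, so that every section carried the reporter. There was 1 section of a healthy control heart, labelled female, 1 section 3 days after infarction (3 dpi), labelled female, and 2 sections at 5 dpi, 1 labelled female and 1 labelled male. Infarction was by permanent ligation of the left anterior descending coronary artery, and each section was 10 µm thick and came from a different sample. Because the control and 3 dpi had 1 section each, no comparison between time points or with the control has a replicate check, and the spread between hearts is known only from the pair at 5 dpi. A spot holds several cells, so fewer cells of a type and less RNA per cell cannot be told apart.

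Before the results, a check of the labels was made with 4 Y-linked genes. They had 704 UMIs in the section named dpi5_female, 1 in dpi5_male and 0 in the other two, which goes against the sex labels of both 5 dpi sections. These sections are therefore called only by their sample names, dpi5_female and dpi5_male, with no sex read from the names, and the main counts are also given without dpi5_female. After the filter on spots, 1146 to 1741 spots per section remained, with 3742105 to 9540940 UMIs outside the 13 mitochondrial genes. The 12 cardiomyocyte genes held 10.1% of these UMIs in the control and 1.98% to 4.53% in the infarcted sections, and all 12 were detected, as the labelled tissue, heart, calls for. Mitochondrial genes held 40.1% of all UMIs in the control and 13.3% to 21.4% in the infarcted sections. Levels are therefore given as CPM, the UMIs of a gene per 1000000 UMIs outside mitochondrial genes. The sections shared 328 to 867 barcodes by pair, since a Visium barcode names a place on the array.

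A ribosome is built from a small subunit, which reads the mRNA, and a large subunit, which joins the amino acids, each made of ribosomal RNA and many RP. The subunits are assembled in the nucleolus by a separate set of biogenesis factors. RP mRNAs are among the most abundant in any cell, and many begin with a short run of pyrimidines through which growth signals acting on mTOR set their translation. Cardiomyocytes are large, hardly divide and give much of their mRNA to contraction and mitochondria, whereas the infarct fills with macrophages and dividing, matrix-secreting fibroblasts.

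RP mRNAs took up a larger part of the RNA in the infarcted hearts. Their summed level was 98028 CPM in the control (95% Poisson interval 97711 to 98346), 149735 CPM at 3 dpi, 151185 CPM in dpi5_female and 139123 CPM in dpi5_male. The interval covers counting error only. The control lay below the 3 infarcted sections, where RP genes held 13.9% to 15.1% of the UMIs against 9.80% in the control. Mitochondrial UMIs, left out of the denominator, and cardiomyocyte UMIs, which are in it, were both highest in the control, and their part in this difference was not tested.

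**Figure D1:**
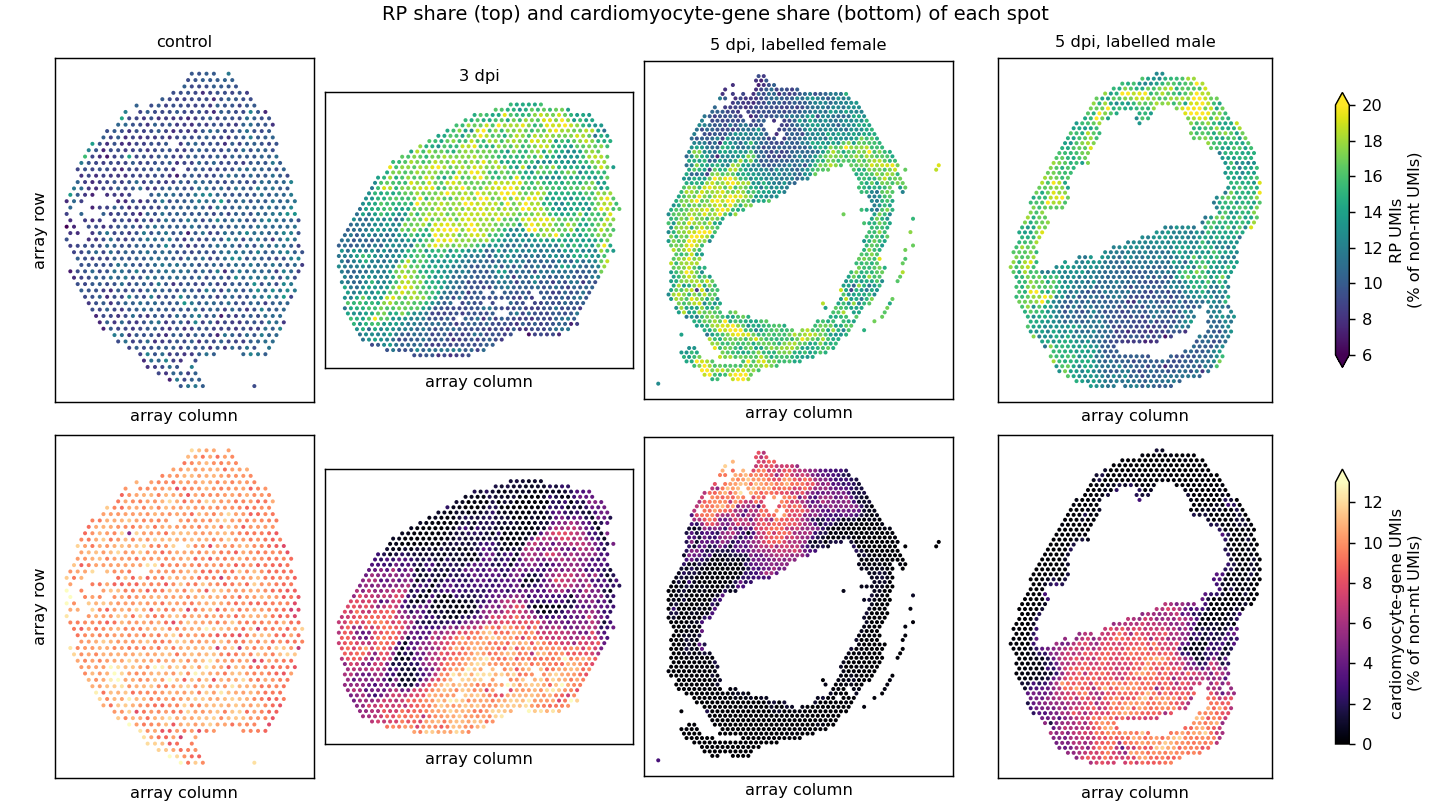
Each point is a spot under tissue at its array row and column. Colour gives the percentage of non-mitochondrial UMIs from RP genes (top) and from the 12 cardiomyocyte genes (bottom) in the control, 3 dpi and both 5 dpi sections. High RP share lies where the cardiomyocyte share is low in the infarcted sections, and the 10th and 90th percentiles of the control's spots of high cardiomyocyte share are 8.48% and 11.2% RP.

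Within a section, the RP share followed the cardiomyocyte share in reverse, as the maps of the spots show. Spearman's rho between the shares over spots was -0.861 at 3 dpi, -0.703 in dpi5_female, -0.860 in dpi5_male and -0.353 in the control. These are descriptions over the 1146 to 1741 spots of each section, which share a library, and the 2 shares have a common denominator. For comparisons within a section, spots were put in 4 classes by their cardiomyocyte share relative to the 90th percentile of their own section. The lowest class held spots under 0.25 of that value, the second those from 0.25 to 0.5, the third those from 0.5 to 0.75 and the highest the rest. The control had 1099 of its 1146 spots in the highest class.

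The summed RP level fell step by step from the lowest to the highest class in each infarcted section. At 3 dpi it was 175289 CPM in the lowest class, 162131 in the second, 132318 in the third and 104210 in the highest. In dpi5_female the levels were 164487, 141180, 123805 and 99995 CPM in the same order. In dpi5_male they were 159332, 139216, 127819 and 107552 CPM. The lowest value of the lowest class stood above the highest value of the highest class, so the classes did not overlap. The log2 ratio of the lowest over the highest class was 0.75, 0.72 and 0.57 in the 3 sections, or 1.68-, 1.64- and 1.48-fold (mean 0.68 ± 0.10 on the log2 scale, SD, n = 3 sections, and 0.66 without dpi5_female). The exact two-sided sign-flip permutation test over 3 sections cannot give a p below 0.25. The mean was 0.48 when cardiomyocyte genes were also left out of the denominator and 1.28 when mitochondrial UMIs were put back in.

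The number of RP molecules caught per spot differed more than their share. A spot of the lowest class held a median of 1063 RP UMIs at 3 dpi, 1095 in dpi5_female and 1075 in dpi5_male. In the highest class the medians were 317, 380.5 and 450. All UMIs outside mitochondrial genes rose as well, with medians of 6106, 6940.5 and 7024 in the lowest class against 3166, 3809 and 4234 in the highest.

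Markers of other cells differed between the classes too. The summed level of 8 fibroblast genes was 14039 to 25292 CPM in the lowest class and 2958 to 5101 CPM in the highest. By the test described next 6 of the 8 were higher and 0 lower (1 lower at an unadjusted p under 0.05). Without dpi5_female 5 were higher and 0 lower, and without dpi5_male 5 were higher and 1 lower. The 8 macrophage genes summed to 8547 to 11935 CPM against 1445 to 1972 CPM, and 8 of 8 were higher. No fibroblast or macrophage gene was at 0 in any class of the infarcted sections. The 5 genes of cycling cells were also higher, at 341 to 485 CPM against 94.9 to 169 CPM (5 of 5, and 3 of 5 without the 3 dpi section). All tested genes of neutrophils (3), lymphocytes (3) and the mesothelium (2) were higher, though neither mesothelial gene passed without dpi5_female. Other lists went down. The 6 endothelial genes summed to 923 to 1611 CPM in the lowest class and 1783 to 3391 CPM in the highest, with 4 lower in edgeR (2 without dpi5_female) and 0 higher, also at an unadjusted p under 0.05. All 4 erythroid genes were lower and 0 higher, again also at an unadjusted p under 0.05. Of the 5 mural genes 2 were higher (1 without dpi5_male) and 3 lower. With scaling by total UMIs 2 endothelial and 2 erythroid genes were lower and none higher. Mitochondrial UMIs were 2.07% to 5.36% of all UMIs in the lowest class and 28.7% to 40.8% in the highest. Their part in the RP difference was not tested. With the spots of the lowest class split evenly into 3 groups by rising fibroblast share, the RP level was 172886, 175418 and 177098 CPM at 3 dpi, 163021, 166667 and 163696 CPM in dpi5_female and 160178, 159637 and 157875 CPM in dpi5_male. With the fibroblast genes left out of the denominator it was 174144, 177692 and 180815 CPM at 3 dpi, 165711, 170730 and 169816 CPM in dpi5_female and 162648, 163301 and 163396 CPM in dpi5_male. Split by macrophage share, from the lowest to the highest group, it went from 179760 down to 171774 CPM at 3 dpi and from 162739 down to 156131 CPM in dpi5_male, but from 157124 up to 169155 CPM in dpi5_female.

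**Figure D2:**
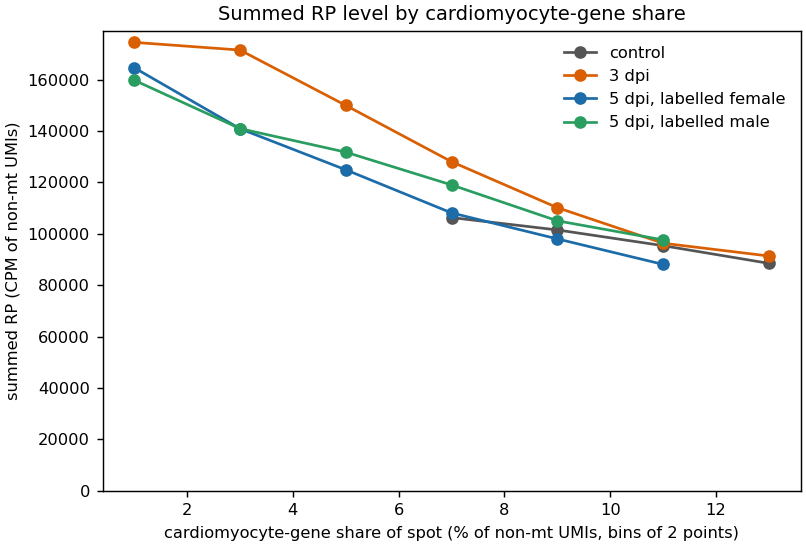
Summed RP level (CPM of non-mitochondrial UMIs, axis from 0) against the cardiomyocyte-gene share of spots in bins of 2 percentage points with at least 20 spots, 1 line per section. The 3 infarcted sections fall from 159820 CPM or more in the bin of least cardiomyocyte RNA to between 88119 and 97652 CPM at 10% to 12%, where the control has 95402 CPM.

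At matched cardiomyocyte share the control lay inside the range of the infarcted sections where that share was high, and below all or most of them where it was lower. In spots with a share of 10% or more the RP level was 95194 CPM in the control, 96013 at 3 dpi, 88046 in dpi5_female (46 spots) and 97652 in dpi5_male. In spots with a share of 5% to 10% it was 101764 CPM in the control, below the 125742, 107995 and 114767 CPM of the infarcted sections. In narrower bins, chosen after the values were seen, the control had 101530 CPM at a share of 8% to 10%, against 110209, 98040 and 105088 CPM. At 6% to 8% it had 106340 CPM (20 spots) against 128090, 108159 and 119051 CPM. In the highest class as a whole, a comparison added after the values were seen, the control had 97775 CPM and the infarcted sections 104210, 99995 and 107552 CPM. The log2 ratio of the nearest infarcted section over the control was 0.03 there, against 0.51 over all spots. The highest class was cut within each section, so its cardiomyocyte share was not matched. That share was 10.2% in the control and 9.84%, 8.47% and 8.59% in the infarcted sections.

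Gene by gene, the control was set against the range of the infarcted sections, and a gene was called when the nearest of them was at least 1.5-fold away. Of 85 members with 10 CPM or more in some section, 25 were higher in the infarcted sections and 0 lower, against 39.2% and 10.4% of the 9304 genes so compared. The members' share higher, 29.4%, was thus below the background, but it was above it without dpi5_male (51.8% against 44.2%) and with mitochondrial UMIs in the denominator (80.0% against 61.5%). By order alone, 76 of the 85 lay above the control in 3 of 3 infarcted sections and 0 below in 3 of 3, against 64.5% and 24.1% of all genes. Rpl5, which carries the 5S ribosomal RNA into the large subunit, had 545 CPM in the control and 1163, 1206 and 1141 CPM at 3 dpi, dpi5_female and dpi5_male. Rpsa, the small-subunit protein also known as a laminin receptor precursor, had 1545 CPM against 3264, 3163 and 2908 CPM. The nearest infarcted section was 2.09-fold above the control for Rpl5 and 1.88-fold for Rpsa. Rpl36 and Rps29, small proteins of the large and the small subunit, were above the control in 1 section each. Rpl36 had 2343 CPM in the control and 2531, 2236 and 2075 CPM in the infarcted sections, and Rps29 had 2803 CPM against 2847, 2584 and 1865 CPM. In the highest class alone, 1 member of 85 was at least 1.5-fold higher (Rpl9-ps6, a low-count pseudogene) and 0 were lower, against 9.18% and 1.44% of 8559 genes. There 31 members lay above and 8 below the control in 3 of 3 sections, against 38.4% and 18.2%. The lowest class of the infarcted sections, set against the highest class of the control, had 53 of 86 members at least 1.5-fold higher and 0 lower, against 47.6% and 15.0% of 9681 genes. Of these 86, 81 lay above in 3 of 3 and 0 below, against 66.3% and 24.2%.

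For the test between classes, UMIs were summed per infarcted section and class and fitted for all genes with section as a block. Scaling was by TMM, which takes the bulk of genes as unchanged. It lowered the lowest class against the highest by 0.42 on the log2 scale relative to CPM (0.46, 0.32 and 0.49 in the 3 sections), so the changes below are relative to that shift. Of the 92 members 86 passed the filter on low counts. Between the lowest and the highest class 40 of the 86 were higher (46.5%), 4 were lower (4.65%) and 42 did not pass. Over all 10521 genes tested, 30.8% were higher and 27.1% lower. The members' median log2 fold change was 0.28 and that of all genes 0.09. Without dpi5_female 12 of the 86 were higher (14.0%) and 2 lower, against 24.8% and 23.5% of all genes, so that the share of members called higher was then below the background. It was below it also without the section block (20 members, 23.3%, against 27.0% of all genes) and with classes cut at quartiles (17 members, 19.8%, against 25.7%). With scaling by total UMIs 77 were higher and 0 lower, against 51.1% and 17.8% of all genes (0 lower also at an unadjusted p under 0.05). By plain CPM ratio, 82 of the 86 were above 0 in 3 of 3 sections, and only Rpl36 was below 0 in 3 of 3, against 58.4% and 20.6% of all genes.

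Between the second and the highest class 33 members were higher and 1, Rpl36, was lower, against 14.8% and 15.5% of all genes. This count changed with a section left out, to 6 higher and 1 lower without the 3 dpi section, against 11.5% and 12.4% of all genes. It was 3 higher and 0 lower (edgeR) without dpi5_female, against 9.71% and 11.8%, and 37 and 0 without dpi5_male, against 10.2% and 11.8%. The members' median log2 fold change was 0.25 with all sections and 0.22, 0.20 and 0.33 with these left out in turn. That of all genes was 0.02 each time. Between the third and the highest class edgeR called 1 member, Rps12, higher and 0 lower, against 3.67% and 6.11% of all genes. At an unadjusted p under 0.05 there were 9 higher and 0 lower, and the DESeq2 test likewise called 1 and 0.

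**Figure D3:**
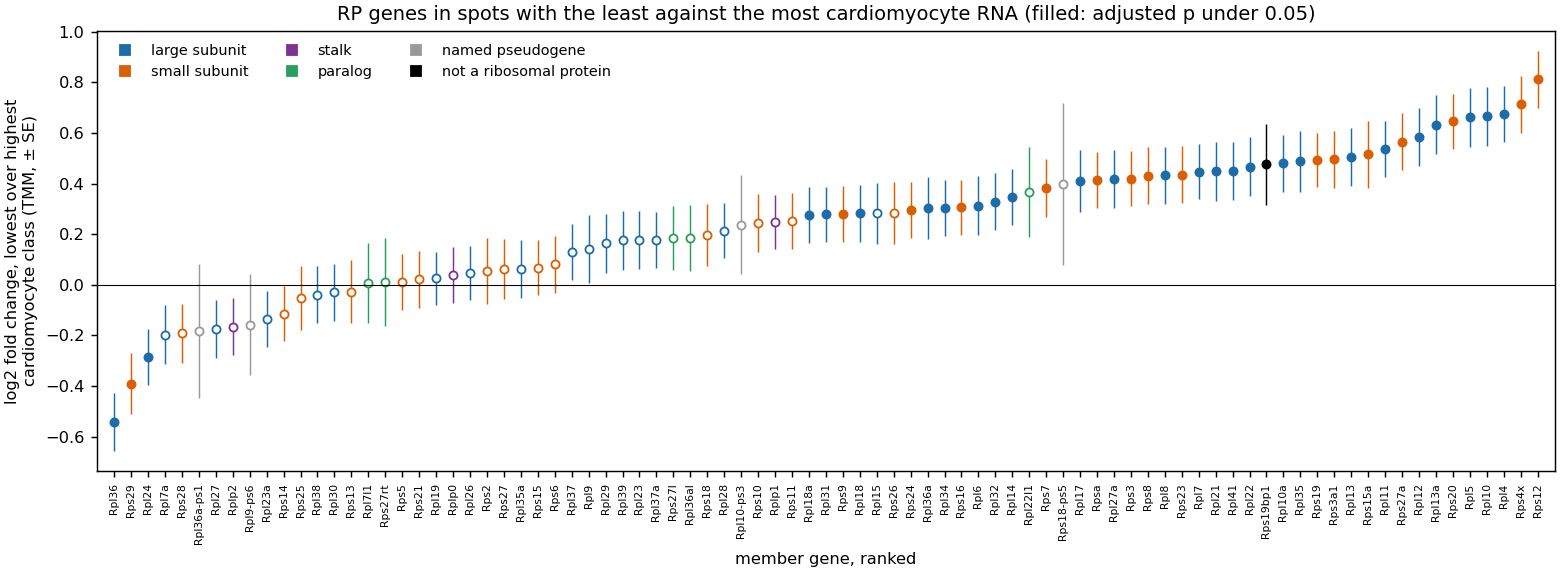
Log2 fold change (edgeR, TMM scaling, bars ± SE) of 85 of the 86 tested RP genes between the lowest and the highest cardiomyocyte class of the 3 infarcted sections, ranked from Rpl36 to Rps12. Colour marks the kind of gene and filled points have an adjusted p under 0.05; 15 of the 85 lie below 0, and under scaling by total UMIs 14 of these change sign, all but Rpl36.

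Both subunits held members that moved and members that did not. Of the 42 large-subunit genes 24 were higher and 2 lower, with a median of 0.29, and without dpi5_female 6 were higher and 1 lower. Of the 31 small-subunit genes 15 were higher and 2 lower, with a median of 0.28, and without dpi5_female 5 were higher and 1 lower. Over all genes 30.8% were higher and 27.1% lower, and without dpi5_female 24.8% and 23.5%, so that the subunits' shares called higher, 57.1% and 48.4% with all sections, were then below the background at 14.3% and 16.1%. Of the 3 stalk genes, 5 tested paralogs and 4 tested pseudogenes none passed in edgeR, though 1 stalk gene, Rplp1, had an unadjusted p under 0.05, and with scaling by total UMIs the 3 stalk genes were higher. The remaining call was Rps19bp1, which binds RPS19 and regulates the deacetylase SIRT1.

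The highest values belonged to Rps12, Rps4x, Rpl4, Rpl10 and Rpl5. Rps12, a small-subunit protein, had 4239, 3630 and 3176 CPM in the lowest class of the 3 dpi, dpi5_female and dpi5_male sections. It had 1618, 1654 and 1397 CPM in their highest class, and 1259 CPM in the highest class of the control. The lowest classes all lay above the highest ones (log2 fold change 0.81 ± 0.11 SE, adjusted p = 3.01e-06). Rps4x, the X-linked copy of a small-subunit protein, had 2434, 2467 and 2948 CPM against 1195, 1067 and 1305 CPM (0.71 ± 0.11, adjusted p = 1.57e-05). Rpl4, a large-subunit protein that lines the exit tunnel, had 1817, 1626 and 1850 CPM against 766, 859 and 843 CPM, and its classes were again apart (0.67 ± 0.11, adjusted p = 2.60e-05). Rpl10, needed late in the making of the large subunit, had 1055, 1129 and 937 CPM against 494, 475 and 487 CPM (0.67 ± 0.12). Rpl5 had 1517, 1386 and 1471 CPM against 648, 712 and 701 CPM (0.66 ± 0.12).

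Among the lowest values were those of Rpl36, Rps29, Rpl24 and Rpl7a. Rpl36 had 2420, 2214 and 1913 CPM in the lowest class and 2522, 2304 and 2261 CPM in the highest, so that it was lower within each section while the ranges of the classes overlapped (-0.54 ± 0.11, adjusted p = 0.000398). Rps29, a zinc-binding small-subunit protein, had 3004, 2603 and 1774 CPM against 2648, 2479 and 1980 CPM (-0.39 ± 0.12, adjusted p = 0.00905). Its CPM was higher in the lowest class in 2 sections, and its sign turned with scaling by total UMIs (0.03). Rpl24 (-0.29 ± 0.11) also turned, to 0.14. The call on Rpl24 was lost with any 1 section left out (adjusted p = 0.0503 without dpi5_female). Rpl36 kept its sign. Rpl7a, with 802, 740 and 669 CPM against 589, 622 and 676 CPM, did not pass (-0.20 ± 0.12, adjusted p = 0.159).

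The 5 most abundant members were Rpl41, Rplp1, Rps24, Rps20 and Rpl13. Rpl41, the smallest ribosomal protein, had 4009 CPM in the control and 8095, 8566 and 7304 CPM in the infarcted sections, and was higher in the lowest class (0.45 ± 0.11, adjusted p = 0.00227). Rps20 (0.65 ± 0.11), Rpl13 (0.51 ± 0.11) and Rps24 (0.29 ± 0.11) were higher as well. Without dpi5_female Rpl41, Rpl13 and Rps24 did not pass (adjusted p = 0.0792, 0.0519 and 0.269), and Rps24 also not without the 3 dpi section (adjusted p = 0.0927). Rplp1, which with Rplp2 and Rplp0 forms the stalk that recruits the translation factors, had 0.25 ± 0.11 with an adjusted p of 0.0534, passed without dpi5_male, and was higher in the second class (adjusted p = 0.0308). Rplp0 (0.04 ± 0.11) and Rplp2 (-0.17 ± 0.11) did not pass, and Rplp2 had 0.26 with scaling by total UMIs. Rpsa was higher (0.42 ± 0.11, adjusted p = 0.00314, and 0.0668 without dpi5_female).

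Some RP have a second gene for a near copy of the protein. Rpl22 had 868 CPM in the control and 1328 to 1562 CPM in the infarcted sections, and was higher in the lowest class (0.47 ± 0.11, adjusted p = 0.00169). Its paralog Rpl22l1 had 210 CPM and 295 to 412 CPM, and 0.37 ± 0.18 with an adjusted p of 0.0864. Rpl36a was higher (0.30 ± 0.12, adjusted p = 0.0400) and Rpl36al was not past the threshold (0.19 ± 0.13). Rpl7 was higher (0.45 ± 0.11) and Rpl7l1 had 0.01 ± 0.16. Neither Rps27 (0.06 ± 0.12) nor Rps27l (0.19 ± 0.13), and not Rpl39 (0.17 ± 0.11), passed. Without dpi5_female Rpl22, Rpl36a and Rpl7 did not pass (adjusted p = 0.0681, 0.263 and 0.0642), and Rpl36a also not without the 3 dpi section (adjusted p = 0.213), whereas without dpi5_male Rpl22l1 and Rpl39 passed. Rpl39l had at most 2.41 CPM in any section, and Rpl10l had no UMI. Reads of near-identical copies and pseudogenes may be split or dropped in counting, so the values of paralogs and pseudogenes are uncertain, and levels are not compared between genes.

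A second fit asked which members moved more or less than the module itself, with the members' summed UMIs as the library size. Relative to this total 16 members were higher and 16 lower in the lowest class, against 20.1% and 33.6% of all genes. In the second class 3 were higher and 9 lower, against 8.11% and 23.3% of all genes, and with a section left out 1 was higher and 3 (without dpi5_female), 4 (without dpi5_male) or 5 (without 3 dpi) lower, against 5.84% and 16.0%, 4.71% and 21.8%, and 6.61% and 15.0% of all genes. In the third, edgeR called 0 in either direction, against 1.82% and 7.91% (1 higher and 3 lower at an unadjusted p under 0.05, and 0 and 1 by the DESeq2 test). Rps12 (0.56), Rps4x (0.46), Rpl4 (0.42), Rpl10 (0.41) and Rpl5 (0.41) gained share of RP UMIs. Rpl36 (-0.80), Rps29 (-0.65), Rpl24 (-0.54) and Rpl7a (-0.45) lost share. The share moved the same way in 3 of 3 sections for these 9 genes, but this was a condition for naming them. Over the 86 members it rose in 3 of 3 sections for 35 and fell in 3 of 3 for 30, against 26.7% and 40.8% of all genes. Leaving out a section left 7 to 12 higher and 9 to 14 lower, with the fewest, 7 and 9, without dpi5_female, against 18.3% and 27.1% of all genes.

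The pattern of shares was alike in the 3 hearts. Over the 79 members with at least 5000 UMIs, the log2 ratio of share between the lowest and the highest class had a Pearson r of 0.89 between 3 dpi and dpi5_female, 0.86 between 3 dpi and dpi5_male and 0.85 between the 5 dpi sections. Its SD over members was 0.26, 0.29 and 0.31 in the 3 sections. These correlations are across genes, which are not independent replicates, and the 3 sections share no spots and no control. Relative change rose weakly with coding length (r = 0.36, rho = 0.37 over the 79 members) and hardly with total UMIs (r = 0.11, rho = 0.10).

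**Figure D4:**
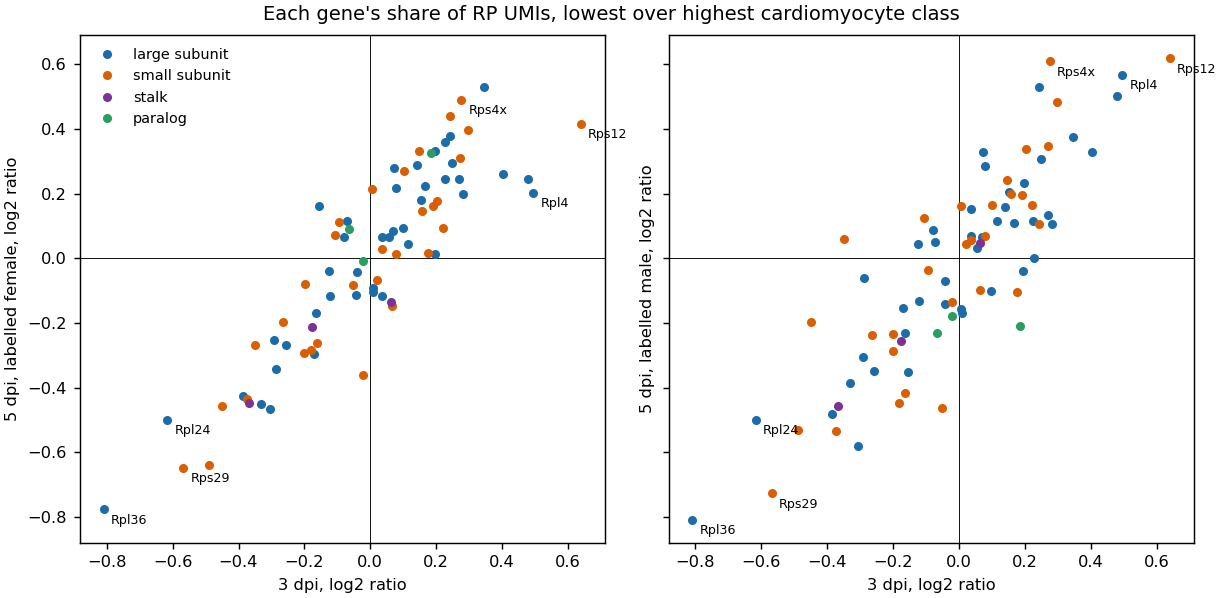
Log2 ratio of each gene's share of RP UMIs, lowest over highest class, at 3 dpi (horizontal) against each 5 dpi section (vertical), for 79 members; colour marks the kind of gene. Rps12 and Rpl36 lie at opposite ends in each panel, and r is 0.89 (left) and 0.86 (right).

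Gene starts are shown for the 5 members with the largest gain of share and for 2 that lost share. These are the sequences in which pyrimidine runs of RP mRNAs would lie. RefSeq windows on GRCm38.p6 were held for 66 of the 92 members. Each line below gives 20 bases before and 20 bases from the annotated start, 5′ to 3′ on the gene's strand. Capitals mark the longest run of at least 5 bases that are each C or T and that reaches within 10 bases of the start. The first 5 genes gained share and the last 2 lost it. Rpl36 and Rps29, which lost the most share, are not among the genes shown.
Rps12 (chr10:23787190-23787229, minus strand): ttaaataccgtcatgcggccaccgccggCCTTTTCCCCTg
Rps4x (chrX:102189372-102189411, minus strand): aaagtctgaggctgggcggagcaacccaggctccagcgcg
Rpl4 (chr9:64173367-64173406, plus strand): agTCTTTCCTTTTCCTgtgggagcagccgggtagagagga
Rpl10 (chrX:74270796-74270835, plus strand): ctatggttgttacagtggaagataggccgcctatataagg
Rpl5 (chr5:107900508-107900547, plus strand): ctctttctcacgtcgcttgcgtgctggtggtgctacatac
Rpl24 (chr16:55966255-55966294, plus strand): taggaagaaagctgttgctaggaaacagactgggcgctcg
Rpl7a (chr2:26910787-26910826, plus strand): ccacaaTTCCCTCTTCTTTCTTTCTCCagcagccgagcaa

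A run of this kind was found in Rps12 (11 bases), Rpl4 (14 bases) and Rpl7a (21 bases), so it stood in genes of either direction. In the other genes shown none reached within 10 bases of the start. The Rpl5 window opens with a run of C and T that ends short of that reach. Over all 77 windows of matched members 67.5% held such a run, against 44.9% of the 32851 windows of all genes. A run of at least 8 bases was held by 40.3% against 13.7%. A C at the annotated start itself followed by 4 bases of C or T was held by 18.2% against 2.51%. Only the transcript strand was searched, the 3 searches overlap, and a match is a description of these letters and not a known site.

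The 5 dpi sections differed from each other in how the RP total was divided. The SD over the 79 members of the log2 ratio of share, dpi5_male over dpi5_female, was 0.22. It was over 0.25 in size for 26 of the 79. Rps19 (-0.49), Rpl37a (-0.44) and Rps6 (-0.39), the target of the S6 kinases, had a smaller share in dpi5_male, and Rps7 (0.41), Rpl21 (0.36) and Rpl22 (0.32) a larger one. The ratios in the lowest and in the highest class had an r of 0.79 over these members. These are 2 hearts at the same time point whose labelled sex and Y-linked UMIs also differ, in opposite ways, so heart and sex cannot be told apart, and there is no test.

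Other genes of translation went their own ways between the lowest and the highest class. Of 4 further ribosomal components 3 were higher and 1 lower, against 30.8% and 27.1% of all genes. With scaling by total UMIs, or without dpi5_male, 3 were higher and 0 lower. Rpl3 (0.72 ± 0.11), Fau (0.65 ± 0.12) and Rack1 (0.55 ± 0.11) were the higher ones. Rpl3 and Fau code for ribosomal proteins and Rack1 for a scaffold on the small subunit. Rpl3 had 233 CPM in the control and 895 to 1063 CPM in the infarcted sections, all above the control.

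Of 7 elongation factor genes edgeR called 3 higher and 0 lower (0 lower also at an unadjusted p under 0.05, and 2 higher and 0 lower by DESeq2), against 30.8% and 27.1% of all genes. Without dpi5_female 1 was higher. Eef1a1, which brings aminoacyl-tRNA to the ribosome, had 4829, 4883 and 4707 CPM in the lowest class and 1244, 1568 and 1312 CPM in the highest. These were far apart (1.39 ± 0.11, adjusted p = 1.17e-09), more than any RP member. Eef1b2, its exchange factor, followed at 0.53 ± 0.13 (adjusted p = 0.0559 without dpi5_female). Of 29 initiation factor genes 4 were higher and 11 lower (14 higher and 3 lower with scaling by total UMIs), with a median of -0.17, against the same background, and without dpi5_female 3 were higher and 8 lower. Pabpc1, the poly(A)-binding protein, was higher (1.05 ± 0.13), as was Eif6 (0.78 ± 0.13), which keeps free large subunits from joining. Eif4a2, a helicase, and Eif4e, which binds the mRNA cap, were lower (-0.85 ± 0.13 and -0.83 ± 0.15).

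Of 50 ribosome biogenesis genes 16 were higher (32.0%) and 5 lower (10.0%), with a median of 0.22, against 30.8% and 27.1% of all genes. With a section left out 7 to 10 were higher, with 7 without 3 dpi or dpi5_male and 10 without dpi5_female. Taf1d (1.12 ± 0.20), a part of the RNA polymerase I initiation complex, and Npm1 (1.01 ± 0.15), a nucleolar chaperone, were highest, and Polr1e (-1.27 ± 0.18), a polymerase I subunit, and Rrp12 (-0.98 ± 0.25, adjusted p = 0.0531 without dpi5_female) were lowest. Of 12 tested nascent chain and assembly factors 3 were higher and 2 lower (25.0% and 16.7%, and 1 and 2 without dpi5_female, 1 and 1 without 3 dpi, 2 and 1 without dpi5_male). Of 14 genes of translation brakes and growth control 4 were higher and 5 lower (28.6% and 35.7%, 3 and 4 without dpi5_female, and 1 and 2 without dpi5_male). Myc, the transcription factor that drives ribosome production, had 19.0, 18.0 and 14.7 CPM against 3.98, 4.38 and 4.81 CPM (1.51 ± 0.28, adjusted p = 0.000112), and Mtor was lower (-0.84 ± 0.18).

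Mitochondrial ribosomal proteins, which are nuclear-coded and serve the separate ribosome of mitochondria, moved opposite to the cytosolic ones. Of 77 tested edgeR called 0 higher and 72 lower (71 without dpi5_female), with a median of -1.07. No more were higher at an unadjusted p under 0.05 or by DESeq2, and with scaling by total UMIs 1 was higher and 57 lower. Their summed level was 7234, 6073 and 6637 CPM in the lowest class and 10883, 9248 and 12161 CPM in the highest, which did not overlap. Mrpl42 was lowest (-2.62 ± 0.16), with 204, 122 and 137 CPM against 718, 530 and 861 CPM. Mrpl52 (0.19 ± 0.11) did not pass. The share of UMIs from mitochondrially coded genes, given above, fell in the same spots.

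**Figure D5:**
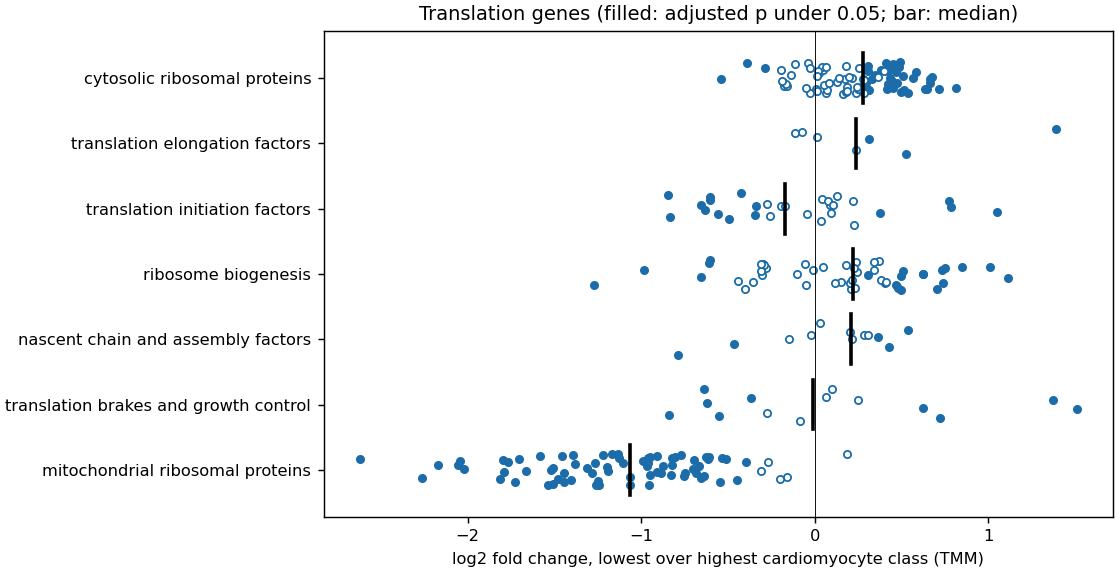
Log2 fold change (edgeR, TMM scaling) between the lowest and the highest cardiomyocyte class for the tested genes of 7 lists, 1 point per gene, filled where the adjusted p is under 0.05, with a bar at the list's median. Cytosolic ribosomal proteins have a median of 0.28 and mitochondrial ones of -1.07; scaling by total UMIs raises all values and leaves the latter at -0.64.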

How the data were processed

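The authors aligned the Visium libraries with Space Ranger 1.3.1, and selected spots by hand; the deposited files hold raw UMI counts per gene and spot. The processing notes name mm10 and the methods an Ensembl-based reference with GFP added, so no coordinates were taken from the counts. Spots marked as under tissue were kept with at least 500 UMIs, 250 genes and at most 50% mitochondrial UMIs, after the methods. Spots are not replicates, so UMIs were summed per section and class (12 sums) and tested with edgeR 4.0.16 (R 4.3.3): filterByExpr, TMM, quasi-likelihood test, section as block, Benjamini-Hochberg over all genes, threshold 0.05, mitochondrial genes left out. Each section comes from its own heart. With section as a block, p-values measure how far the differences between classes vary from section to section, not the spread in level between sections. The fit was tested on simulated data. Alternatives were DESeq2 1.42.0, other scalings, filters, classes, a second cardiomyocyte list and each section left out. Genes were named by rule: the 5 most abundant, the 5 highest and 5 lowest (also relative to the RP total), paralog pairs, stalk genes and Rpsa, and per translation list the 2 highest and 2 lowest. Those named relative to the RP total had to be past the threshold there, with the same direction in 3 of 3 sections. Others named for the 5 dpi pair or against the control were chosen after their values were seen. Values of some genes are not reported here, though the counts include them. Coding lengths came from GENCODE. The members and lists were chosen with earlier results of these data known. Python 3.11.15, pandas 2.3.3 and matplotlib 3.10.9 were used.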

Additional observations from a re-analysis of the deposited data

Results flagged for a closer look

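The section dpi5_male, whose Y-linked UMIs go against its label, also holds 623 spots that are not marked as under tissue and enter no comparison above. Their summed RP level was 163428 CPM (364284 RP UMIs), above the 98028 CPM of the control, and cardiomyocyte genes held 1.69% of their non-mitochondrial UMIs. In the lowest class of the same section the level was 159332 CPM and cardiomyocyte genes held 0.50%.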

How the results depend on the processing

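Scaling decided most. With scaling by total UMIs in place of TMM, 77 members were higher and 0 lower in the lowest class, 67 and 0 in the second, and 32 higher in the third, against 51.1%, 26.7% and 8.46% of all genes higher under that scaling. Rps29 (0.032), Rpl24 (0.14), Rpl7a (0.23) and Rplp2 (0.26) then turned sign. Of the translation lists, elongation factors then had 7 higher, initiation factors 14 higher and 3 lower, biogenesis 30 and 1, nascent chain and assembly factors 9 and 0, translation brakes 7 and 1, and mitochondrial ribosomal proteins 1 higher.

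Without the section block 20 members were higher and 1 lower in the lowest class, 3 and 0 in the second, 0 higher in the third, and 5 higher and 7 lower relative to the RP total (all genes: 27.0% and 24.9%, 11% and 12.2%, 0.342% higher, and 17.3% and 31.0%). With quartile classes 17 were higher in the lowest class, 13 in the second and 0 in the third, and 7 higher and 10 lower relative to the total (all genes: 25.7%, 18.7% and 0.889% higher, and 19.0% and 30.7%). In the second class 0 were lower without the count filter, with the second cardiomyocyte list and with all tissue spots, against 10.4%, 17.0% and 15.4% of all genes. In the third, 0 were higher with DESeq2 size factors and 2 with the second cardiomyocyte list, against 3.37% and 4.81% of all genes. The mean log2 ratio of summed RP was 1.28 over all UMIs and 0.48 without cardiomyocyte genes. Against the control, the log2 ratio of the nearest section was 1.004 over all UMIs, 0.35 without cardiomyocyte genes and, in the highest class alone, 0.032, with 68, 13 and 1 members at least 1.5-fold higher, against 61.5%, 32.5% and 9.18% of all genes.

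With each section left out, 12 to 45 members were higher and 2 to 3 lower in the lowest class (24.5% to 27.4% and 23.5% to 25.8% of all genes), 3 to 37 and 0 to 1 in the second (9.71% to 11.5% and 11.8% to 12.4%), and 0 to 0 higher in the third. Relative to the RP total 7 to 12 were higher and 9 to 14 lower. Elongation factors then had 1 to 3 higher, biogenesis 7 to 10 higher, nascent chain and assembly factors 1 to 2 higher and 1 to 2 lower, and translation brakes 1 to 3 higher and 2 to 5 lower, alternatives chosen after the data were seen. Against the control the log2 ratio was 0.51 to 0.61, with 25 to 44 members at least 1.5-fold higher, the most without dpi5_male, against 39.7% to 44.2% of all genes.

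The other sign changes were of values that did not pass in either of the settings compared. Rps27 had -0.12 with quartile classes. Rpl7l1 had -0.057 with DESeq2 size factors, -0.058 by the DESeq2 test, -0.0013 without the filter, -0.020 with the second list, -0.017 with all tissue spots and -0.0083 with TMM without cardiomyocyte genes. Rplp0 had -0.023 with DESeq2 size factors, -0.024 by the DESeq2 test, -0.0070 with the second list and -0.11 with quartile classes. Rps27l had 0.013 with quartile classes, relative to the RP total. With each section left out, Rps27 had -0.065 to 0.18, Rpl7l1 -0.12 to 0.064 and Rplp0 -0.038 to 0.13. Relative to the RP total, Rplp1 had -0.043 to 0.056, Rpl22l1 -0.018 to 0.27, Rpl36a -0.015 to 0.11 and Rpl36al -0.15 to 0.012. The cause of these changes was not tested. With 1 control section and 1 at 3 dpi, depth is not what limits the comparisons between sections. No paired analysis was possible because the sections of different groups share no animal.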
